A study of Salmo salar with 79 samples.

Results

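Transcript levels in the skin wounds of Atlantic salmon were compared between 3 and 1 days post wounding (dpw). All 10 arrays at 3 dpw were set against all 10 arrays at 1 dpw, which are 20 of the 79 arrays of the series. Each day held 5 fish kept at high fish density (HFD) and 5 fish kept at control density, and both densities entered one fit with density as a covariate. The arrays were chosen by their labels alone, so that no measured value entered the choice.

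The fish were sea water post-smolts, stocked at 100 kg/m3 in the HFD tank and at 20 kg/m3 in the control tank. The wounds of both groups were made with a biopsy needle through the skin, and RNA was taken from a piece of the wound with skin around it. Each density was 1 tank, so that tank and density cannot be told apart, and the density rose in the HFD tank and fell in the control tank in the course of the experiment. Different fish were sampled on the 2 days. Intact skin of 4 HFD and 4 control fish, taken before wounding and after the start of both stocking densities, gives the starting level below.

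Repair of fish skin passes through overlapping phases. Clotting and the first influx of leukocytes follow the injury at once, epidermal cells from the margin slide over the wound bed early on, and new connective tissue, vessels, pigment and scales follow later. The acute phase response is the release of defence and iron-binding proteins, made mainly in the liver and to a lesser degree in skin and leukocytes. Collagens and the proteins that bind and cross-link them are the products of dermal fibroblasts and make up most of the intact dermis.

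Each array was read in one colour and held 14841 probes beside 536 control spots. A level is the log2 spot signal minus the 75th percentile of its array, so that a level of 0 equals that percentile. Levels compare fish for one probe and not one probe with another. Between 82.1% and 90.3% of probes were well above background on the arrays at 3 dpw and between 78.2% and 88.0% at 1 dpw, and the 75th percentile lay between 496.34 and 1007.72 intensity units at 3 dpw and between 296.75 and 701.86 at 1 dpw. No spot was saturated. Gene names were at hand for 771 probes only, all from a list that the study drew up for differences between HFD and control on these arrays. The list was not chosen for day, but it is no sample of the whole transcriptome. Differences between densities among its probes reuse in part the values behind their choice. Genomic positions and sequences of the probes were not used here. The numbers after the gene names are the probe identifiers of the array.

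The transition between the 2 days moved a large share of the measured transcripts in both directions. Of 12665 probes tested, 750 were higher and 1123 were lower at 3 dpw, where a call asked for an adjusted p under 0.05 and a log2 change beyond 0.8 (limma, Benjamini-Hochberg adjustment over all tested probes). The 1873 calls were 14.8% of the probes tested, 5.92% for higher and 8.87% for lower. The median log2 change of all tested probes was -0.02. Of the calls 40.0% were higher. That share was 50.4% with scaling to the median of each array and 69.0% with the authors' scaled values (1305 higher and 585 lower). More than scaling set the authors' values apart. At 1 dpw their rank correlation with the spot signals lay between 0.957 (HFD fish 2) and 0.985 for fish 2 to 5 of each density. For fish 1 of each density it was 0.9995 or more, and at 3 dpw it was 0.9991 or more on every array. Why fish 2 to 5 of 1 dpw differed was not tested. Whether their spot signals and scaled values come from the same fish was not tested either. Over 4-fold, 19 probes were higher and 70 were lower. Probes with no name here were ranked outside the co-varying group described below. Their largest rises were those of Ssa#GRASP209735401 (log2 change 2.72 ± 0.43) and Ssa#S35563223 (2.55 ± 0.31). Their largest falls were those of Ssa#S35561640 (-3.02 ± 0.26) and Omy#CX252802 (-2.96 ± 0.36), each with its SE. Within the co-varying group, falls of probes with no name reached -3.3. Of the 12585 probes measured in every fish, the 2 days did not overlap for 641, or 5.09%, with 424 higher and 217 lower at 3 dpw. Among the 764 named probes that were tested, 128 were higher, 160 were lower and 476 were not called, and the share called was 37.7%. The counts of each list below are to be read beside that share. In tissue samples such as these, fewer cells of a type and less RNA per cell cannot be told apart.

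The 20 arrays lay on 6 slides, and 4 of these slides held both days. Of the 20 arrays, those on slide 5 were all of control fish and those on slide 8 all of HFD fish. Slides 6 and 7 held both densities in numbers that differed between the days, so that changes within these slides mix day and density. Differences between slides can therefore be told apart from differences between densities only in part. With slide as a fixed term the fit called 675 probes higher and 937 lower, and with slide as a random term 741 and 1126. Of 91 called probes with a name that were followed across slides and settings, 82 changed in the same direction within each of the 4 slides and 9 did so within 3 of them. These probes were picked as called on the same arrays, so that this agreement follows in part from the choice. It is no separate support, and the share over all tested probes was not taken.

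**Figure D1:**
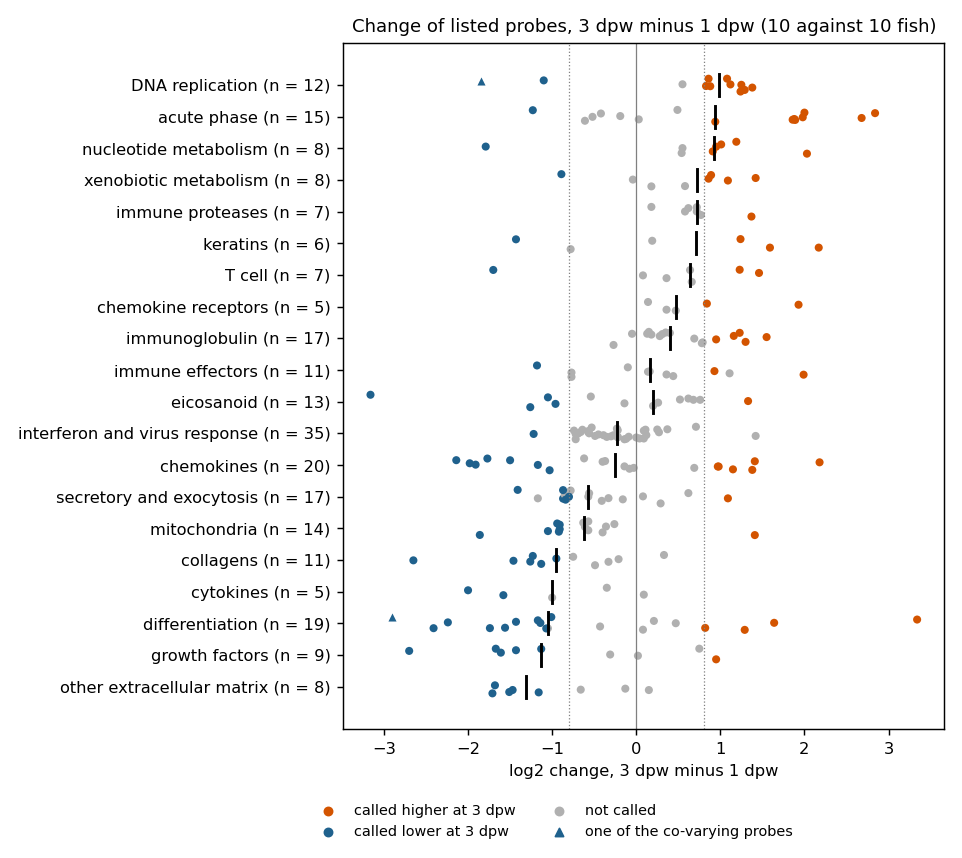
Log2 change of each tested probe at 3 dpw minus 1 dpw, grouped by the study's functional categories, with 10 fish a day. Each point is a probe, the black bar is the median of its list, and the dotted lines mark a log2 change of 0.8 in either direction. Lists for DNA replication and the acute phase have medians of 0.98 and 0.94, whereas the collagens and the other extracellular matrix genes have medians of -0.95 and -1.32.

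More transcripts of acute phase proteins rose than fell. Of 15 probes of the study's acute phase list, 8 were higher, 1 was lower and 6 were not called. The median log2 change was 0.94, against -0.02 for all tested probes and -0.11 for the named probes. The study's plasma list, of other proteins, had 0 higher and 1 lower of 5 (median -0.17). The largest rise of all named probes, outside that list, was that of hepatocyte growth factor activator (Ssa#GRASP209154669), a plasma protease that activates hepatocyte growth factor. Its level lay between -1.34 and 1.65 (median 0.72) at 3 dpw and between -3.68 and -2.09 (median -2.90) at 1 dpw, with a median of -3.12 in intact skin. The days did not overlap, and 1 dpw lay near intact skin. The log2 change was 3.34 ± 0.38 (SE, n = 10 a day, adjusted p = 1.62e-06), which is 10.1-fold.

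Serotransferrins bind iron in the plasma and withhold it from microbes. The level of serotransferrin-2 (Ssa#S18835321) lay between -2.78 and -0.13 (median -1.79) at 3 dpw and between -6.21 and -3.58 (median -4.57) at 1 dpw, a log2 change of 2.84 ± 0.36 (SE, adjusted p = 5.38e-06). Serotransferrin-1 (Ssa#GRASP209154423) changed by 2.68 ± 0.34 (SE, adjusted p = 6.8e-06). The near identical sequences of this pair may share signal between probes. In neither case did the days overlap, and both were at 1 dpw in the range of intact skin. Complement C3 (Ssa#S34822137), the central protein of the complement cascade, had a log2 change of 1.76 ± 0.36 (SE, adjusted p = 0.000656), with medians of -3.40 at 3 dpw and -4.61 at 1 dpw. It was the 1 member of the complement list that rose. Of the 7 members 1 fell, a probe of complement factor D (Omy#S19710761, log2 change -1.31), and 5 were not called, with a median of -0.46.

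Serum amyloid A, an acute phase protein that attracts leukocytes, was measured by 4 probes and rose on all of them by log2 changes between 1.88 and 2.00. On one of the 4 (Ssa#GRASP221221375), levels lay between 4.03 and 5.43 (median 4.95) at 3 dpw and between 1.70 and 4.57 (median 2.83) at 1 dpw, beside a range of -2.19 to 2.25 (median -0.90) in intact skin. The transcript had therefore risen above intact skin by 1 dpw in most fish and was higher again at 3 dpw, with an overlap of the days (log2 change 1.89 ± 0.29, SE, adjusted p = 4.73e-05). Cathelicidin (Ssa#S26387025), an antimicrobial peptide, followed the same order without overlap. Its medians were 5.36 at 3 dpw and 3.64 at 1 dpw, beside -0.52 in intact skin (log2 change 1.52 ± 0.16, SE, adjusted p = 7.7e-07). Leukocyte cell-derived chemotaxin 2-1 (Ssa#TC94054), a chemotactic protein that the liver also makes, changed by 2.18 ± 0.29 (SE, adjusted p = 1.03e-05). Both probes of STEAP4, a metalloreductase (Ssa#S48396453 and Ssa#GRASP223649457), rose without overlap, by 1.46 ± 0.16 and 1.41 ± 0.15 (SE, adjusted p = 1.39e-06 and 1.05e-06). The 1 acute phase member that fell was apolipoprotein E (Ssa#S30280814), a lipid carrier that macrophages and skin cells also make, with a log2 change of -1.23 ± 0.25 (SE, adjusted p = 0.00067). Across the 4 slides the median of the acute phase list was 1.23, 0.65, 0.75 and 0.76. Other named probes with large rises were endothelin-converting enzyme 2 (Ssa#GRASP209736639), a membrane protease, at 2.26 ± 0.29 (SE, adjusted p = 7.17e-06), and kidney injury molecule (Ssa#CB503728), in mammals a receptor for dying cells, at 1.99 ± 0.22 (SE, adjusted p = 1.47e-06), both without overlap. The probe Ssa#GRASP209736395, for a protein with a catechol-O-methyltransferase domain, had a log2 change of 2.03 ± 0.35 (SE, adjusted p = 0.00014). Markers of liver cells were not among the lists, and the part of blood plasma or cells in these values was not tested. The 6 markers of erythrocytes had 0 higher and 2 lower, a share of 33.3% beside 37.7% of all named probes. Their median log2 change was -0.55, and their mean level lay between -0.36 and 1.56 at 3 dpw and between 0.45 and 2.31 at 1 dpw.

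**Figure D2:**
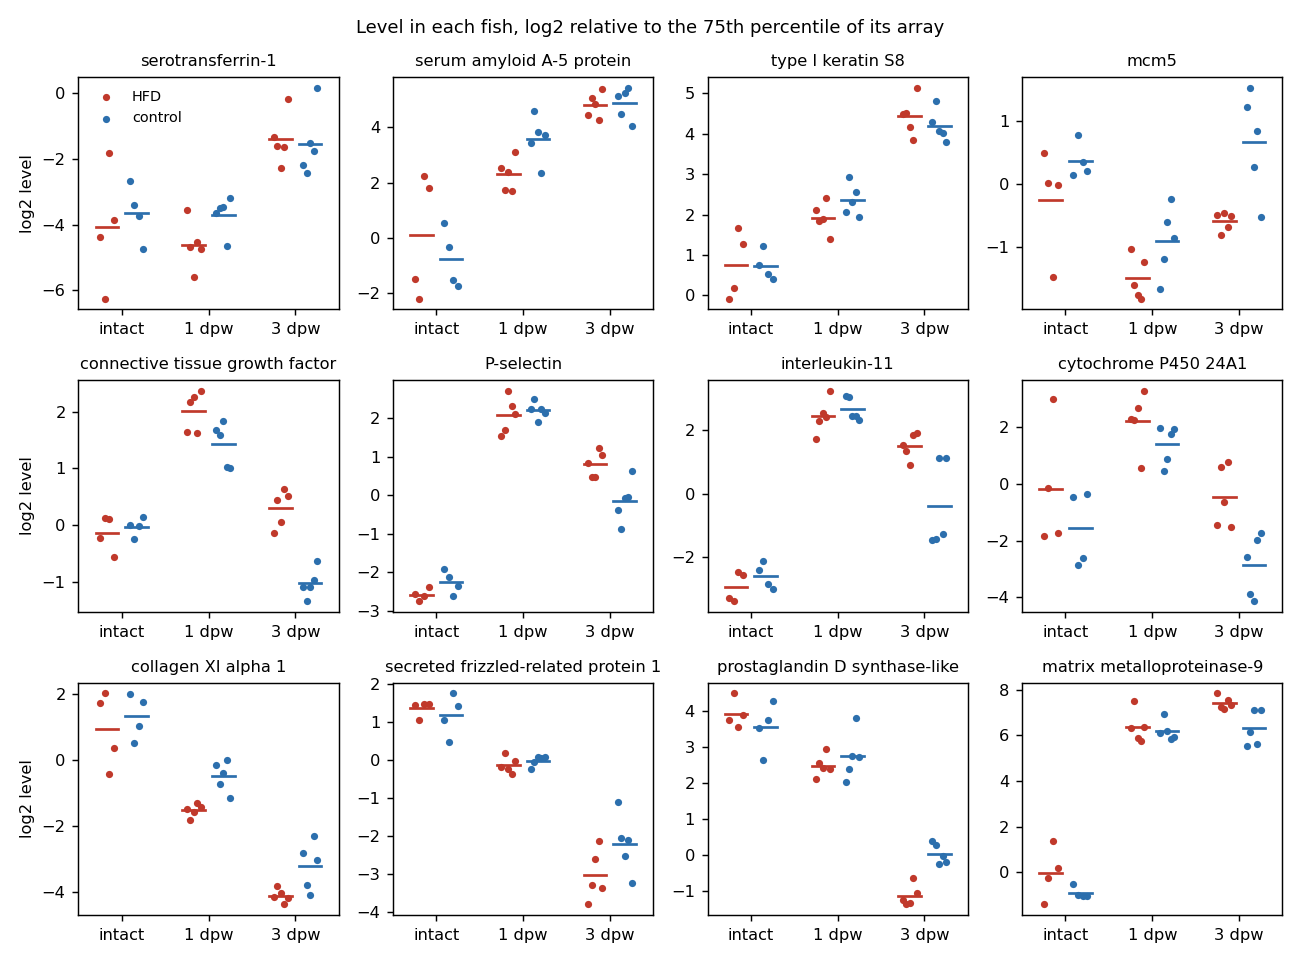
Level of 12 probes in each fish, as log2 signal relative to the 75th percentile of the array, for intact skin, 1 dpw and 3 dpw with HFD fish left of control fish. Each point is a fish and each bar the mean of its group. Serotransferrin-1 and keratin S8 were higher at 3 dpw in every fish than in any fish at 1 dpw, P-selectin and interleukin-11 stood highest at 1 dpw, and collagen XI alpha 1 declined over the 3 stages.

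Several proteases and leukocyte genes that were far above intact skin at 1 dpw were still so at 3 dpw. Matrix metalloproteinase-9, a gelatinase of neutrophils, macrophages and migrating epidermal cells, had levels between 5.55 and 7.83 (median 7.14) at 3 dpw and between 5.74 and 7.52 (median 6.13) at 1 dpw, beside a range of -1.40 to 1.37 (median -0.75) in intact skin on one probe (Ssa#GRASP209155851). The log2 change between the days was 0.58 ± 0.26 (SE, adjusted p = 0.0795), so that it was not called. Of its other 3 probes, 1 was called (Ssa#CL17Contig1, 1.07 ± 0.32, SE, adjusted p = 0.0112) and the other two were at 0.62 and 0.18. The probe at 0.58 was called with quantile normalization, normexp and the authors' scaled values, and that at 0.62 with normexp and the authors' scaled values. Normexp here and below stands for a background correction of median spot signals with an offset of 50, followed by quantile normalization. These steps were not run apart. Collagenase 3, known as matrix metalloproteinase-13, cleaves fibrillar collagen. It rose on 1 of its 3 probes (Ssa#S31997300, 1.37 ± 0.36, SE, adjusted p = 0.00517), where the medians were 3.29 at 3 dpw and 1.36 at 1 dpw, beside -4.52 in intact skin. The other two had changes of 0.77 and 0.72, just inside the fold limit, and were called with quantile normalization, normexp or the authors' scaled values. Urokinase plasminogen activator (Ssa#CL51Contig1), which starts the dissolution of clots, and its inhibitor type 1-like protein (Ssa#S35590181) were at 0.16 and -0.38 and were not called, and the inhibitor had medians of 5.22 at 3 dpw and 4.98 at 1 dpw, beside -1.0 in intact skin. Matrix metalloproteinase-25 (Ssa#S18877812), a membrane-bound enzyme of leukocytes, had a log2 change of 0.33 ± 0.23 (SE, adjusted p = 0.259). Their inhibitor, metalloproteinase inhibitor 2 (Ssa#GRASP223648071), rose by 1.15 ± 0.20 (SE, adjusted p = 0.000167), with medians of 2.41 at 3 dpw and 1.45 at 1 dpw, beside -2.43 in intact skin. The study's immune protease list had 1 higher and 0 lower of 7 (median 0.72). That count depended on the setting. The higher calls were 4 with quantile normalization, 5 with normexp, 6 with the authors' scaled values and 2 with median scaling. They were 3 with slide as a fixed term and 1 with slide as a random term, and 0 were lower in each. Within HFD the median was 1.06 with 4 higher and 0 lower, and within control fish 0.5 with 0 higher and 0 lower. That difference was not tested for the list.

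The 7 markers of neutrophils had 1 higher, 1 lower and a median log2 change of 0.16, and all 7 were well above background in every fish. Their mean level lay between -0.50 and 1.46 (median 0.43) at 3 dpw and between -0.37 and 1.1 (median 0.44) at 1 dpw, while it lay between -3.10 and -1.84 in intact skin. Both wound days were thus above all intact fish and overlapped each other. By density, the median change of these markers was 0.46 in HFD fish, with 2 higher and 0 lower. In control fish it was -0.15, with 0 higher and 2 lower. That difference was not tested for the markers, and the study had chosen the named probes for differences between densities. Neutrophil cytosolic factor 2 (Ssa#S35600971), a subunit of the oxidase that makes the oxidative burst, rose by 0.93 ± 0.20 (SE, adjusted p = 0.000935), a call lost with normexp. Myeloperoxidase (Ssa#CL175Contig1), an enzyme of neutrophil granules, was at -0.77 ± 0.34 (SE, adjusted p = 0.0759). Further subunits of the oxidase were not called, with log2 changes of 0.44 and 0.36 for neutrophil cytosolic factor 1 and of 0.16 and 0.14 for cytochrome b-245 beta. Inducible nitric oxide synthase (Ssa#S35552650) was at 1.11 ± 0.47 (SE, adjusted p = 0.0676). The lower call of p22phox (Ssa#CA048649), a membrane subunit of the oxidase, stood at the threshold (adjusted p = 0.0499) and was lost under 23 of the alternatives. The C5a receptor (Omy#S18170445), by which leukocytes sense complement activation, had medians of 0.70 at 3 dpw and -0.29 at 1 dpw, beside -5.05 in intact skin, and a log2 change of 0.84 ± 0.20 (SE, adjusted p = 0.0027), near the fold limit and not called under 5 of the alternatives. C-C chemokine receptor type 3 (Ssa#S35700963), in mammals a receptor of eosinophils, rose without overlap by 1.93 ± 0.20 (SE, adjusted p = 5.62e-07), with medians of -0.12 at 3 dpw and -2.04 at 1 dpw, beside -3.04 in intact skin. The 8 markers of mononuclear phagocytes had 1 higher and 0 lower (median 0.40).

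A different set of genes stood high at 1 dpw and was lower at 3 dpw. Heparin-binding growth factor 1 (Ssa#GRASP221222195), a fibroblast growth factor, had levels between -1.38 and 0.71 (median 0.26) at 3 dpw and between 1.74 and 3.89 (median 2.80) at 1 dpw, and a median of -0.87 in intact skin. It fell without overlap by 2.70 on the log2 scale (SE 0.26, adjusted p = 3.36e-07). Connective tissue growth factor (Ssa#GRASP209154141), a matrix protein induced by TGF-beta and by mechanical tension, had medians of -0.37 at 3 dpw and 1.66 at 1 dpw (log2 change -2.07 ± 0.17, SE, adjusted p = 6.09e-08), and at 3 dpw it overlapped with intact skin. Thrombospondin-1 (Ssa#S48403294), a platelet and matrix protein that restrains vessel growth, was at medians of -0.15 at 3 dpw and 1.37 at 1 dpw, beside -2.67 in intact skin (log2 change -1.41 ± 0.15, SE, adjusted p = 1.23e-06). ADAMTS15 (Ssa#S30281579), a protease of proteoglycans, fell without overlap (-1.92 ± 0.16, SE, adjusted p = 8.65e-08).

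P-selectin captures leukocytes from the blood at activated endothelium. On one probe (Ssa#GRASP223647411) levels lay between -0.88 and 1.21 (median 0.46) at 3 dpw and between 1.54 and 2.71 (median 2.17) at 1 dpw, with a median of -2.47 in intact skin. The days did not overlap, and 3 dpw was still above every intact fish (log2 change -1.81 ± 0.21, SE, adjusted p = 2.96e-06). A second probe fell by 1.79 on the log2 scale, and the remaining one of that name (Ssa#GRASP209154193) was at 0.53 and not called, so that the probes disagreed. Among cytokines, 2 of 5 probes fell and 0 rose, a share of 40.0% that was close to the 37.7% of all named probes. The list differed by density. Within HFD its median was 0.48 with 1 higher and 1 lower, and within control fish -1.60 with 0 higher and 5 lower. That difference was not tested for the list, whose members the study had chosen for differences between densities. Interleukin-11 (Omy#S22610346), a cytokine of the interleukin-6 family, had medians of 1.13 at 3 dpw and 2.46 at 1 dpw, beside -2.72 in intact skin (log2 change -2.0 ± 0.40, SE, adjusted p = 0.000632). Interleukin 17 isoform D-1 (Ssa#S35583279) fell without overlap to a median of -0.71 at 3 dpw, against 1.01 at 1 dpw and 1.37 in intact skin (log2 change -1.58 ± 0.18, SE, adjusted p = 1.7e-06). Cytokine-inducible SH2-containing protein (Ssa#GRASP209735229), a feedback inhibitor of cytokine receptors, changed by -2.03 ± 0.18 (SE, adjusted p = 1.43e-07). CD276 (Ssa#GRASP209731943), an inhibitory ligand for T cells, was at medians of -2.14 at 3 dpw and -0.18 at 1 dpw, beside -4.67 in intact skin (log2 change -1.70 ± 0.29, SE, adjusted p = 0.000125).

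The study's transcription factor list had 0 higher, 1 lower and 6 not called of 7, and the factors described here stood in other lists. ATF-3 (Ssa#GRASP223648879), a stress-induced factor, had medians of -0.93 at 3 dpw and 0.33 at 1 dpw, beside -1.71 in intact skin, and changed by -1.24 ± 0.17 (SE, adjusted p = 1.75e-05). Both C/EBP delta probes, for a factor of the acute phase response, were lower at 3 dpw by -1.56 ± 0.17 (Ssa#GRASP209737603, SE, adjusted p = 1.33e-06) and -1.07 ± 0.19 (Ssa#S47726557, SE, adjusted p = 0.000166). C/EBP beta (Ssa#GRASP209152840) was at -0.38 ± 0.24 (SE, adjusted p = 0.219), with medians of 4.47 at 3 dpw and 4.58 at 1 dpw, beside 0.49 in intact skin. Among ligands of the EGF receptor, which drive the movement and growth of epidermal cells, epigen (Ssa#S35515922) had medians of 5.62 at 3 dpw and 5.79 at 1 dpw, beside 0.84 in intact skin, and proheparin-binding EGF-like growth factor (Ssa#S35591308) was at -1.05 ± 0.48 (SE, adjusted p = 0.0827). Neither was called, whereas proepiregulin (Ssa#GRASP221219517) rose by 1.04 ± 0.25 (SE, adjusted p = 0.00263), though not with normexp.

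Eicosanoid genes, which make and sense leukotrienes and prostaglandins, had 1 higher and 4 lower of 13, with a median of 0.20 that was -0.03 with slide as a fixed term. The share called was 38.5%, close to the 37.7% of all named probes. Within HFD the median was 0.6 with 4 higher and 3 lower, and within control fish -0.2 with 0 higher and 3 lower. That difference was not tested for the list. Lipocalin-type prostaglandin D synthase-like protein (Ssa#TC108704), the enzyme that makes prostaglandin D, had the second largest fall among the named probes. Its level lay between -1.38 and 0.37 (median -0.45) at 3 dpw and between 2.02 and 3.81 (median 2.48) at 1 dpw, with a median of 3.74 in intact skin. The days did not overlap, and the level at 3 dpw was below every intact fish (log2 change -3.16 ± 0.21, SE, adjusted p = 1.05e-08, 8.92-fold). Prostaglandin G/H synthase 2b (Omy#S37211068), the inducible cyclooxygenase, stood above intact skin on both days, with medians of -2.09 at 3 dpw and -0.95 at 1 dpw, beside -6.44 in intact skin. It fell by 1.26 on the log2 scale (SE 0.36, adjusted p = 0.00874), a call that was lost with slide as a fixed term. Cytosolic phospholipase A2 gamma (Ssa#S35498112), of a family that frees fatty acids from membranes, rose by 1.33 ± 0.42 (SE, adjusted p = 0.0159). The enzymes of leukotriene synthesis were not called between the days, at 0.62 ± 0.28 for leukotriene A4 hydrolase (Ssa#GRASP209154603), 0.20 ± 0.26 for 5-lipoxygenase-activating protein (Ssa#S50679337) and -0.14 ± 0.24 for arachidonate 5-lipoxygenase (Ssa#GRASP209149945), each with its SE.

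Chemokines, the attractants of leukocytes, split. Of 20 probes, 6 were higher and 7 were lower, with a median of -0.25 that was 0.03 with normexp, under which 6 were higher and 3 lower. All 3 probes of C-C motif chemokine 21, which draws lymphocytes and dendritic cells, fell, with the largest change at -1.98 ± 0.64 (Ssa#TC109014, SE, adjusted p = 0.0185). Its change was -3.50 within HFD and -0.47 within control fish. Within slides 5 to 8 it was 0.25, -3.55, -4.25 and -4.32, where slide 5 compared only control fish and slide 8 only HFD fish. Another of the 3 (Ssa#EG870251, -1.91) was at 0.35 within slide 5 and lost its call with normexp and without the density covariate. All 3 probes of C-C motif chemokine 28, in mammals a chemokine of mucosal epithelia, fell as well. For the probe with the largest change (Ssa#S35559539), levels lay between -4.86 and -1.87 (median -3.43) at 3 dpw and between -1.66 and -0.16 (median -1.2) at 1 dpw, beside a range of -0.19 to 1.37 in intact skin. The wound days did not overlap, and 1 dpw overlapped with intact skin only in the extremes (log2 change -2.14 ± 0.28, SE, adjusted p = 7.33e-06). C-C motif chemokine 19-2 (Ssa#S18855165), of the same receptor as chemokine 21 in mammals, moved the other way by 1.38 ± 0.38 (SE, adjusted p = 0.00673). Both probes of C-X-C motif chemokine 10 were at -0.08 and -0.14 and were not called.

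Some transcripts of lymphocytes were higher at 3 dpw. Of the 3 T cell receptor probes that served as markers of T cells, 2 were higher and 0 lower, with a median log2 change of 1.23, and 1 was higher with normexp. Within HFD the median was 1.32 with 2 higher and 0 lower, and within control fish 0.65 with 0 higher and 0 lower. That difference was not tested for the markers. The constant region of TCR-gamma (Ssa#S41489954) had levels between -1.60 and 2.20 (median 0.99) at 3 dpw and between -3.19 and 0.59 (median -0.78) at 1 dpw, with a median of -3.26 in intact skin (log2 change 1.46 ± 0.45, SE, adjusted p = 0.0136). The T cell receptor beta chain (Ssa#GRASP209736251) was at a median of -2.04 at 3 dpw and -2.93 at 1 dpw, beside -2.0 in intact skin, so that it was below intact skin at 1 dpw and near it at 3 dpw (log2 change 1.23 ± 0.32, SE, adjusted p = 0.00507). That call was lost with normexp. The immunoglobulin list had 5 higher and 0 lower of 17 (median 0.40), a smaller share called than the 37.7% of all named probes. With normexp 1 was higher, and the higher calls among the 15 markers of B cells were 0 in place of 3. Its largest change was in a heavy chain (Ssa#S18892412), with medians of -2.59 at 3 dpw and -3.85 at 1 dpw and no overlap (log2 change 1.55 ± 0.23, SE, adjusted p = 3.46e-05). Immunoglobulin probes of related sequence may share signal.

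Keratins form the filaments of epidermal cells. Of 6 keratin probes, 3 were higher and 1 was lower, and these counts were the same with quantile normalization, normexp, the authors' scaled values and median scaling. With slide as a fixed term 3 were higher and 2 lower, the added one being keratin-associated protein 10-2 (Ssa#S35528169), which was at -0.78, just inside the fold limit, and was also called when certain single fish were left out. Type I keratin S8 (Ssa#S22713494) had levels between 3.80 and 5.14 (median 4.22) at 3 dpw and between 1.39 and 2.93 (median 2.09) at 1 dpw, beside a range of -0.08 to 1.66 (median 0.64) in intact skin. The days did not overlap, and the log2 change was 2.17 ± 0.19 (SE, adjusted p = 9.84e-08). Type II keratin E3 (Ssa#S35492043) and keratin 18 (Ssa#S31964202) rose by 1.59 ± 0.22 and 1.24 ± 0.18 (SE, adjusted p = 2.01e-05 and 3.33e-05), again without overlap. Keratin, type I cytoskeletal 20 (Ssa#GRASP209730277) fell by 1.43 on the log2 scale (SE 0.26, adjusted p = 0.000243), and type II keratin E2 (Ssa#CK879833) was at 0.19 ± 0.20 (SE, adjusted p = 0.467). Proteins of epidermal cell junctions were not called, with changes of 0.05 for periplakin (Ssa#S35543868) and 0.29 and 0.21 for the 2 epithelial cadherin probes. Integrin beta-1 (Ssa#GRASP223647545), by which cells hold on to matrix, rose without overlap by 0.94 ± 0.12 (SE, adjusted p = 7.85e-06), and its medians were 6.11 at 3 dpw and 5.06 at 1 dpw, beside 3.62 in intact skin. Protein-glutamine gamma-glutamyltransferase 2 (Ssa#GRASP209153018), which cross-links proteins, rose by 1.00 ± 0.24 (SE, adjusted p = 0.0026). Among the 4 markers of mucous cells 1 rose, large mucosal protein (Ssa#S35547500, 0.89 ± 0.23, SE, adjusted p = 0.00401), and mucin 5AC (Ssa#S35597062) was at 0.25 ± 0.23 (SE, adjusted p = 0.407). Both probes of giant mucus protein were at 0.19 and -0.20 and were not called. A probe of zymogen granule membrane protein 16 (Ssa#S50370027), which the study held likely to act in mucous secretion, was called lower at -0.87. That call was lost under 8 of the alternatives. The secretory and exocytosis list had 1 higher and 5 lower of 17 (median -0.57), a share of 35.3% beside 37.7% of all named probes. With normexp 1 was lower, and with slide as a fixed term 0 were.

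DNA replication genes were higher at 3 dpw, to a degree that differed between slides, which also differed in density. Of 12 probes, 9 were higher, 2 were lower and 1 was not called, with a median log2 change of 0.98. The MCM proteins form the helicase that opens DNA, and GINS is its partner complex. MCM3 (Ssa#GRASP209154823) had levels between 0.23 and 2.46 (median 0.70) at 3 dpw and between -1.07 and 0.81 (median -0.28) at 1 dpw, beside a median of 1.06 in intact skin. The days overlapped, and 3 dpw stood near intact skin while 1 dpw stood below it (log2 change 1.29 ± 0.21, SE, adjusted p = 9.42e-05). The GINS subunit SLD5 (Ssa#GRASP209738001) changed by 1.38 ± 0.21 (SE, adjusted p = 4.9e-05), mcm5 (Ssa#GRASP209149683) by 1.25 ± 0.23 (SE, adjusted p = 0.000303) and mcm6-B (Ssa#GRASP223648747) by 1.24 ± 0.28 (SE, adjusted p = 0.00181). The mcm2 probes rose by 1.12 and 0.88, both calls being lost with slide as a fixed term. At 0.55, mcm4 (Ssa#GRASP223648691) had an adjusted p under 0.05 but lay inside the fold limit, so that it was not called. Ribonucleotide reductase M2 (Ssa#GRASP209154227), which supplies deoxynucleotides, rose by 1.19 ± 0.21 (SE, adjusted p = 0.000153). PCNA (Ssa#GRASP209731795), at 0.68 ± 0.20 (SE), likewise missed a call by the fold limit alone, and was called with the authors' scaled values. Thymidylate synthase (Ssa#GRASP209735383) was at 0.55 ± 0.27 (SE) and passed neither limit. The mitotic kinase cdc2 (Ssa#GRASP209734763) was at -0.05 ± 0.25 (SE, adjusted p = 0.9). The 2 members that fell were DNA polymerase subunit delta-4 (Ssa#GRASP221221991, -1.1 ± 0.14, SE, adjusted p = 6.09e-06) and the GINS subunit PSF3 (Ssa#S47727879), which is one of the co-varying probes. Cyclin-dependent kinase inhibitor 1C (Ssa#S31976502), which holds cells out of division, fell by 1.34 on the log2 scale (SE 0.19, adjusted p = 2.52e-05). Within slides 5 and 8 the median of the replication list was 1.62 and 0.65, and within slides 6 and 7 it was 0.17 and 0.02. Slide 5 compared only control fish and slide 8 only HFD fish, so slide and density cannot be told apart here. Slide 6 set 1 HFD and 1 control fish at 3 dpw against 2 control fish at 1 dpw. Slide 7 set 2 HFD fish at 3 dpw against 1 HFD and 1 control fish at 1 dpw. The values within slides 6 and 7 therefore mix day and density. With slide as a fixed term the median was 0.71 and 5 members were higher and 1 lower. By density the median was 0.77 in HFD fish, with 3 higher and 1 lower, and 1.27 in control fish, with 10 higher and 1 lower.

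Genes of the fibrous dermis fell. Of 11 collagen probes, 6 were lower and 0 higher (median -0.95), and of 8 other matrix probes 5 were lower and 0 higher (median -1.32). The mean level of the collagen list had a median of -1.22 at 3 dpw and -0.13 at 1 dpw, beside 1.17 in intact skin, and that of the other matrix list -1.37 at 3 dpw and -0.34 at 1 dpw, beside -0.48 in intact skin. Collagen XI alpha 1 (Ssa#GI226374736), which nucleates collagen fibrils, had levels between -4.36 and -2.31 (median -3.92) at 3 dpw and between -1.80 and 0.00 (median -1.23) at 1 dpw, beside a range of -0.42 to 2.01 (median 1.37) in intact skin. The days did not overlap, and the log2 change was -2.65 ± 0.19 (SE, adjusted p = 2.23e-08). Collagen VII alpha 1 (Omy#CU065019), the anchor between epidermis and dermis, changed by -1.46 ± 0.23 (SE, adjusted p = 5.92e-05). Collagen I is the main fibre of the dermis. It fell on 4 of the 5 probes of the list, by changes of -1.23 and -1.26 for alpha 2, -1.13 for a1(I) and -0.95 for a3(I), and a second a3(I) probe was at -0.49 and not called. The first a3(I) probe lost its call with normexp, with the authors' scaled values and with slide as a fixed term. Both collagen X probes, for a collagen of scales and mineralising tissue in fish, were at -0.21 and -0.33 with SEs of 0.44 and 0.43.

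Periostin (Ssa#S35559341), a matrix protein of fibroblasts, had levels between -1.16 and 0.39 (median -0.46) at 3 dpw and between 0.31 and 2.27 (median 1.19) at 1 dpw, beside a range of 1.21 to 2.34 (median 1.93) in intact skin. The days overlapped only in their extremes (log2 change -1.68 ± 0.22, SE, adjusted p = 1.06e-05). Protein-lysine 6-oxidase (Ssa#GRASP209154963), which cross-links collagen, fell by 1.51 (SE 0.29, adjusted p = 0.000406), mimecan (Ssa#GRASP221219503), a small proteoglycan, by 1.67 (SE 0.31, adjusted p = 0.000269) and SPARC (Ssa#S47624912), a collagen-binding protein, by 1.13 (SE 0.21, adjusted p = 0.000275) on the log2 scale. Fibronectin (Ssa#S35698682), the early provisional matrix of wounds, was at 0.15 ± 0.24 (SE, adjusted p = 0.632) and had medians of 0.55 at 3 dpw and 0.34 at 1 dpw, beside -1.83 in intact skin. It stood above intact skin on both days, unlike the collagens. Secreted frizzled-related protein 1, an inhibitor of Wnt signalling, fell on both of its probes. On the first (Ssa#S35549028) levels lay between -3.79 and -1.09 (median -2.55) at 3 dpw and between -0.36 and 0.19 (median -0.02) at 1 dpw, beside a range of 0.47 to 1.76 in intact skin, without overlap between any 2 stages (log2 change -2.55 ± 0.23, SE, adjusted p = 1.64e-07). Angiopoietin-related protein 1 (Ssa#GRASP223648877), a secreted vascular factor, fell by 2.15 on the log2 scale (SE 0.41, adjusted p = 0.000382).

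The 9 markers of fibroblasts, which share collagen I, periostin, SPARC and mimecan with these lists, had 8 lower and 0 higher. Their mean level lay between -1.73 and 0.19 (median -0.92) at 3 dpw and between -0.81 and 0.83 (median 0.59) at 1 dpw, beside a range of 0.18 to 2.14 (median 1.56) in intact skin. All 9 were well above background in every wounded fish. Within the 4 slides the median log2 change of these markers was -1.46, -2.01, -0.84 and -0.56, and that of the matrix list other than collagens was -1.31, -1.63, -1.03 and -1.01. With normexp the median of that matrix list was -0.61. How much of the fall came from the share of dermis in the piece of wound taken was not tested.

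**Figure D3:**
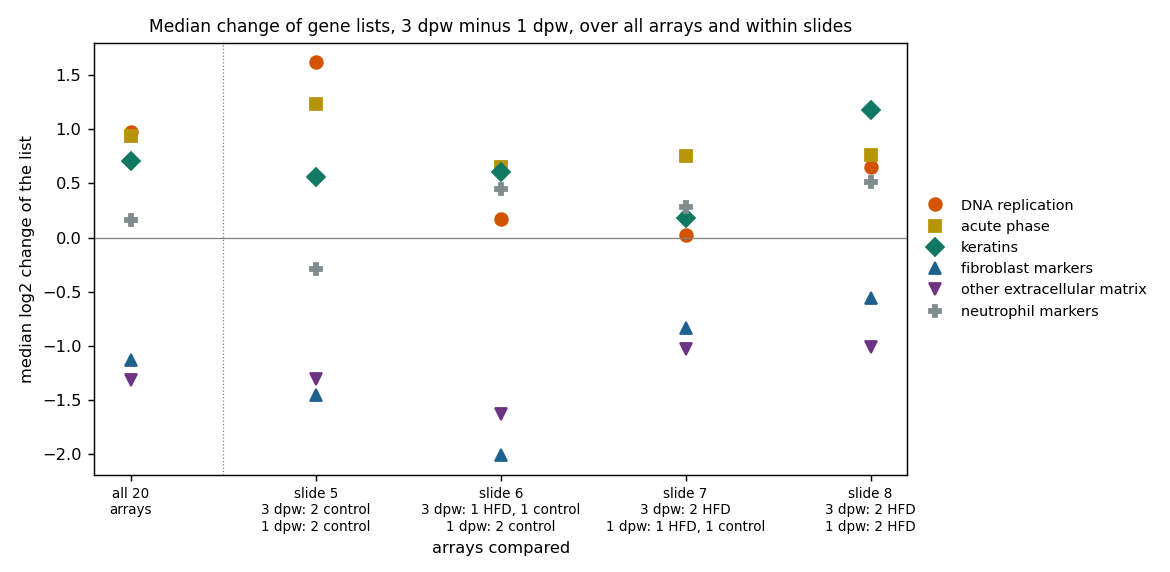
Median log2 change at 3 dpw minus 1 dpw of 6 gene lists over all 20 arrays and within each of the 4 slides that held both days, with the arrays compared named under each slide. The acute phase, keratin, fibroblast and other extracellular matrix lists kept their sign within every slide. So did the DNA replication list, though it was at only 0.17 and 0.02 within slides 6 and 7, where density differed between the days. The neutrophil markers changed sign.

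Lists of metabolism moved in different directions. Of 8 nucleotide probes 5 were higher and 1 was lower (median 0.93), and of 8 probes for the handling of foreign compounds 4 were higher and 1 was lower (median 0.72), whereas amino acid genes had 1 higher and 4 lower of 10 (median -0.53), with 2 lower under normexp and with the authors' scaled values. Cytochrome P450 24A1 (Ssa#GRASP223649023), the enzyme that degrades vitamin D, had the largest fall of all named probes. Its level lay between -4.14 and 0.77 (median -1.62) at 3 dpw and between 0.47 and 3.30 (median 1.96) at 1 dpw, beside a range of -2.84 to 3.02 (median -1.1) in intact skin. The days overlapped in their extremes, and intact skin overlapped with both (log2 change -3.46 ± 0.44, SE, adjusted p = 6.23e-06, 11-fold). Pyruvate dehydrogenase kinase 2, which limits the entry of pyruvate into mitochondrial oxidation, fell on both probes by 2.26 (Ssa#GRASP223649111, SE 0.32, adjusted p = 2.23e-05) and 1.86 (Ssa#TC103002, SE 0.41, adjusted p = 0.00118). Of 14 mitochondrial probes, 6 were lower and 1 was higher (median -0.62). The lower calls were 4 with quantile normalization, 3 with normexp, 3 with slide as a fixed term and 2 with the authors' scaled values, and 0 within HFD and 3 within control fish. The member that rose was cytochrome c oxidase subunit 4 isoform 2 (Ssa#GRASP209736785), in mammals the isoform induced by low oxygen (1.41 ± 0.26, SE, adjusted p = 0.00025). The 8 markers of skeletal muscle had 2 lower and 0 higher (median -0.60), both calls being lost with slide as a fixed term. Their part in the mitochondrial values was not tested.

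The interferon and virus response list, of 35 probes, had 0 higher and 1 lower. The member that fell was cholesterol 25-hydroxylase-like protein A (Ssa#GRASP209732475), which makes an antiviral oxysterol (-1.22 ± 0.23, SE, adjusted p = 0.000303). The antiviral proteins Mx (Ssa#GRASP209153085) and viperin (Ssa#S32000097) were at 0.12 ± 0.41 and -0.49 ± 0.42 (SE) and were not called. The median of the list was -0.23 over all fish, 0.36 within HFD and -0.91 within control fish. That difference between densities was not tested for the list, and its members were chosen by the study for such differences.

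HFD and control fish are separate fish of separate tanks, so that the transition was measured in each. Within HFD, 878 probes were higher and 764 lower at 3 dpw, or 13% of the probes tested. Within control fish, 697 were higher and 894 lower, or 12.6%. In the same direction in both were 800 probes, which were 48.7% of the HFD calls and 50.3% of the control calls, and 2 probes were called in opposite directions. Of the HFD calls, 96.4% had the same sign in control fish, and of the control calls 94.8% had the same sign in HFD fish. Across the 12665 probes the 2 log2 changes correlated with a Pearson r of 0.69, a description over probes that are not independent and that shared slides in part.

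The difference between the HFD change and the control change was itself tested for each probe. limma called 0 of 12665 probes, or 0%, with a lowest adjusted p of 0.313, while 1164 had an unadjusted p under 0.05. The analysis of variance also called 0, and 543 passed the study's criteria of fold and unadjusted p. With 5 fish in each group, this does not show that the transition was alike in both. The named probes were listed by the study for density differences on these arrays, so a low p among them is no independent support. The lowest p among them was that of Toll-like receptor 5 (Ssa#S22336501), a receptor for bacterial flagellin. In HFD fish its levels were -1.36, -1.24, -0.21, -0.05 and 0.08 at 3 dpw and -2.91, -2.46, -2.28, -2.21 and -2.02 at 1 dpw. In control fish they were -3.39, -3.34, -2.62, -2.25 and -0.95 at 3 dpw and -2.22, -1.81, -1.78, -1.38 and -0.76 at 1 dpw. The days were apart in HFD fish and overlapped in control fish. The changes were 1.82 and -0.92, with a difference of 2.74 ± 0.58 (SE, unadjusted p = 0.000153 and adjusted p = 0.313 by limma). IL-8 receptor (Ssa#S31996577), which guides neutrophils, was at 1.59 in HFD and -0.56 in control fish, a difference of 2.15 ± 0.46 (SE, unadjusted p = 0.000163 and adjusted p = 0.313 by limma). The 2 probes called in opposite directions were interleukin-1 beta (Ssa#CL122Contig1), a first cytokine of inflammation, at 1.78 in HFD and -1.60 in control fish, and C-C motif chemokine 20 (Ssa#S35549491), at -1.65 in HFD and 1.59 in control fish. For both the adjusted p of the difference was 0.359. Over both densities together they were at 0.09 and -0.03.

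**Figure D4:**
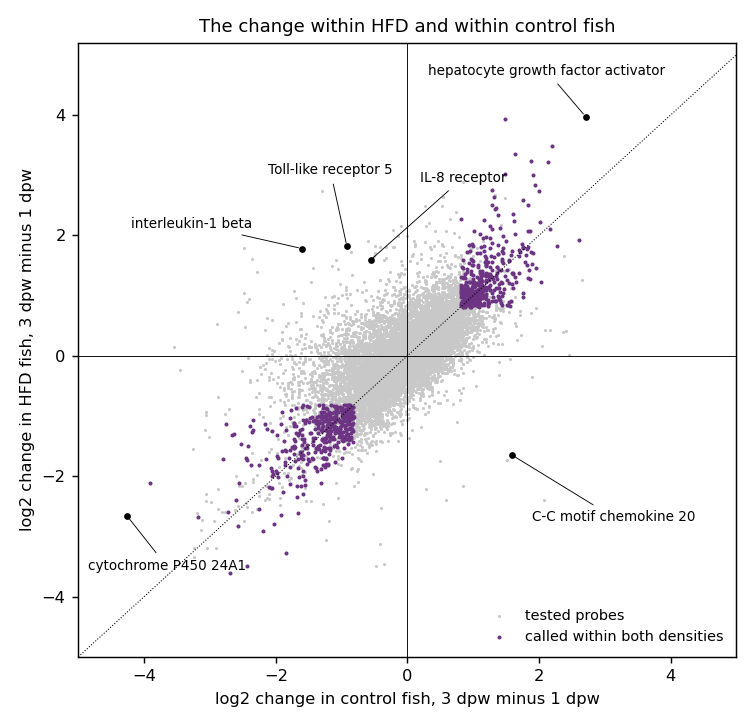
Log2 change at 3 dpw minus 1 dpw in HFD fish (vertical axis) against that in control fish (horizontal axis) for 12665 probes, with the probes called within both densities in purple and 6 named probes in black. The dotted line marks equal changes. The 800 probes called in the same direction lie at the lower left and the upper right, and interleukin-1 beta and C-C motif chemokine 20 lie away from them, at the upper left and the lower right.

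Set beside intact skin, the calls were of 4 kinds, given as a description since the same arrays at 1 and 3 dpw enter both sides. Of the 750 probes higher at 3 dpw, 353 (47.1%) had a median at 1 dpw above intact skin, and 489 (65.2%) were farther from the intact median at 3 dpw than at 1 dpw. Of the 1123 lower probes, 468 (41.7%) had been above intact skin at 1 dpw, as with P-selectin and interleukin-11, and 789 (70.3%) were farther from it at 3 dpw, as with the collagens. The shares that lay farther follow in part from the calls. The 353 higher probes above intact skin at 1 dpw and the 655 lower ones below it were almost bound to be farther at 3 dpw. The share over all tested probes was not taken.

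A group of 53 co-varying probes moved as one from fish to fish and has to be read apart. They were found from the fish themselves, as the probes whose deviations from their group means correlated above 0.9 with those of one probe (Ssa#S18836021). That probe was picked as the called probe with the largest standard error. The group is described without a test of its own. Their mean level lay between -2.20 and 1.12 (median 0.04) at 3 dpw and between -1.62 and 4.04 (median 2.69) at 1 dpw, beside a range of -3.38 to 0.28 (median -3.03) in intact skin, a spread of 75.6-fold over the 20 wounded fish. Between the days 48 of them were called lower and 0 higher, with a median log2 change of -2.20. The standard errors had a median of 0.71 against 0.16 for all tested probes. Large errors and a wide spread between fish follow in part from how the group was picked. Of the 70 probes lower by over 4-fold, 38 lay outside this group, and without it 1075 probes were lower.

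The group held 18 named probes, of no common category. Kazrin-A (Omy#CA373458), a protein of keratinocyte junctions in mammals, had the largest change among them at -2.91 ± 0.95 (SE, adjusted p = 0.0196). The adhesion receptor CD97 (Ssa#TC105924) was at -2.71 ± 0.88 (SE, adjusted p = 0.0192), beta-1,3-glucosyltransferase (Ssa#S35594035) at -2.70 ± 0.90 (SE, adjusted p = 0.0215), G-protein coupled receptor 3 (Ssa#DW543822) at -2.68 ± 0.91 (SE, adjusted p = 0.0244) and TBC1 domain family member 13 (Ssa#KSS976) at -2.36 ± 0.83 (SE, adjusted p = 0.0279). With slide as a fixed term the changes were about as large, at -2.78 for Kazrin-A, -2.61 for CD97, -2.72 for the glucosyltransferase, -2.52 for G-protein coupled receptor 3 and -2.20 for TBC1 domain family member 13, but none of the 5 was called (lowest adjusted p = 0.0577). In 2 of 10 fish at 1 dpw, HFD fish 1 and 4, the mean level was -1.62 and -0.58, below most fish at 3 dpw. Over the 20 arrays the mean level of the group had a Pearson r of -0.54 with the percent of probes well above background. Any link between them was not tested. What these probes have in common was not tested.

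**Figure D5:**
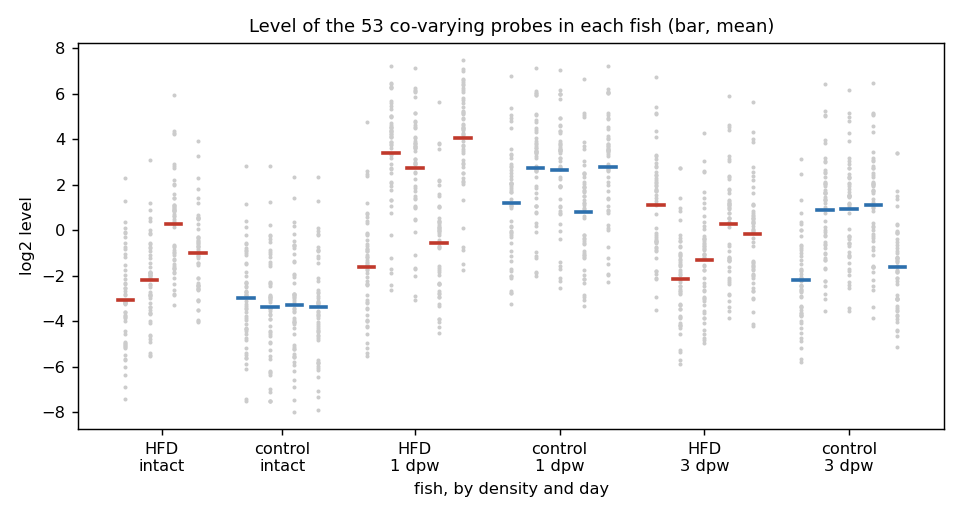
Log2 level of the 53 co-varying probes in each fish, by density and stage, with a grey point for each probe and a bar for the mean of the fish. Bars at 1 dpw reach 4.04 in HFD fish and 2.77 in control fish, bars at 3 dpw do not exceed 1.12, and fish of the same group differ by several log2 units.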

How the data were processed

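Samples were put into groups by day and density from the labels. The authors labelled the RNA, hybridised it to one-colour Agilent arrays and scanned them with Feature Extraction 12.0.1.1, and the deposited intensity values are background-subtracted spot signals of each array, not normalized between arrays. The deposited spot flags were used as well. A second deposited table, of the authors' scaled intensity values, served as an alternative. RNA extraction is described differently in the labels and in the study's methods. Here each array's log2 signals were set against its 75th percentile, 536 control spots and spots marked as outliers were left out, and probes well above background on at least 10 of the 20 arrays were tested. limma 3.58.1 in R 4.3.3 fitted day with density as covariate, and a fit of 4 groups gave the change within each density and their difference. Script steps were tested on simulated data. Calls needed a Benjamini-Hochberg adjusted p under 0.05 over all tested probes and a log2 change beyond 0.8.

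Replicates were separate fish of 1 tank per density, and the number of arrays limits the precision. Names and categories of 771 probes came from the study's list, and 14070 probes had no name here. The probes described by name were drawn from a rule. It took the 10 largest rises and falls and up to 4 called members of each list, plus a fixed set of genes known in wounds. Not every probe that met the rule is described. Cysteine-rich protein 1, aldose reductase and annexin A1 are among those left out. The members and lists were chosen with earlier results of these data known. Apolipoprotein E, DNA polymerase subunit delta-4, the members of the co-varying group and the genes of the density difference were named after their values were seen. Alternatives changed the scaling, the background correction, the filter, the test, the covariates, the slide and the arrays included.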

Additional observations from a re-analysis of the deposited data

Results flagged for a closer look

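In 11 of 264 sets of 10 fish (132 named probes on each day) 1 fish lay apart, where its distance to the nearest other fish, as a share of the range, was above Dixon's critical value at the 95% level. Chance marks about 1 set in 20. At 3 dpw, transglutaminase was low in control fish 4, at a level of -0.71 with the next fish at 0.76 (0.480). Collagen a1(I) was high in control fish 1, at 0.90 with the next at -0.17 (0.525), and cholesterol 25-hydroxylase-like protein A was low in the same fish, at -1.04 with the next at 0.13 (0.514). Hemoglobin subunit alpha-4 was low in control fish 2, at 0.36 with the next at 2.31 (0.534), and urokinase plasminogen activator was high in HFD fish 1, at 5.30 with the next at 4.12 (0.489).

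At 1 dpw, HFD fish 2 was high for 3 transcripts. These were prostaglandin G/H synthase 1 at 0.22 with the next at -2.35 (0.609), the third P-selectin probe at 1.32 with the next at 0.11 (0.576) and matrix metalloproteinase-25 at 1.83 with the next at 0.54 (0.520). Lipocalin-type prostaglandin D synthase-like protein was high in control fish 4, at 3.81 with the next at 2.93 (0.491). Interleukin-1 beta 2 was high in control fish 2, at 1.1 with the next at -0.08 (0.489), and protein-glutamine gamma-glutamyltransferase 2 was low in control fish 1, at -2.22 with the next at -0.77 (0.489). What set these fish apart was not tested.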

How the results depend on the processing

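Of 91 called probes with a name that were followed, none changed sign under any alternative run, and 71 stayed called under all of them. With normexp, its offset and quantile normalization together, the number of calls between the days was 872 (377 higher and 495 lower). It was 794 within HFD and 788 within control fish. Of the 872, 836 were among the 1873 calls given above, in the same direction. Which of these steps lowered the count was not tested. With the authors' scaled values 1305 probes were higher and 585 lower, and with no limit on the fold change 5278 passed (2788 higher and 2490 lower), with 3139 within HFD and 3284 within control fish. For the difference between densities, 1 probe was called with the authors' scaled values, 13 with all 16 groups of the series in one fit and 543 by the study's criteria, which use unadjusted p-values. Leaving out 1 fish at a time gave between 1704 and 2014 calls between the days (683 to 819 higher and 977 to 1228 lower), 1295 to 1811 within HFD, 1267 to 1756 within control fish and 0 to 1 for the difference, the 1 arising without HFD fish 2 of 1 dpw. Slide as a fixed term took the call from 14 of the 91 named probes, among them PSF3 and the other 5 co-varying probes named above, and left 1230 calls within HFD and 1393 within control fish. Where not stated, the cause was not tested.

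Fish of the 2 days that carried the same replicate number did not deviate together (correlations between -0.27 and 0.17 over the probes), so that the numbers do not pair the fish, and a fit with the replicate number as a block called 742 higher and 1096 lower, 1635 within HFD and 1530 within control fish. The removal of the 53 co-varying probes was chosen after seeing the data and left 1075 lower calls. The number of arrays and the background signal limit what could be measured. Names at hand for 771 probes limit the gene lists, which cannot stand for the transcriptome.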
